A study of Homo sapiens with 9 samples.

Results

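Glial and neuronal identity genes were described in U87, an established human glioma line, as 10 genes chosen by name for marking astrocytes, neural progenitors, neurons and cells of the oligodendrocyte and pericyte lines. The genes were GFAP, S100B and ALDH1L1 for astrocytes, NES and VIM for progenitors, MAP2, SYT1, GPM6A and TUBB3 for neurons, and CSPG4. They were read from 22 probe sets with a single gene symbol, of 41091 such probe sets for 19775 genes. Cells were transfected with 50 nM miR-376a*A, 50 nM miR-376a*G or 50 nM of a control microRNA duplex, and RNA was taken after 72 h. Each treatment had 3 arrays labelled as biological replicates. All cells were of one line, and all groups, the control included, received lipid transfection and a duplex. The labels do not say whether the replicates came from separate cultures, so p-values measure the spread between these arrays.

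Astrocytes are the supporting glia of the brain and are recognised by the filament protein GFAP, the calcium-binding protein S100B and the folate enzyme ALDH1L1. Neural progenitors carry the filament proteins nestin (NES) and vimentin (VIM), while neurons build their processes on class III β-tubulin (TUBB3) and the dendritic protein MAP2 and release transmitter with the calcium sensor synaptotagmin 1 (SYT1). Glioma lines can carry markers of more than one of these lineages. Lineage markers are commonly used to describe how far a glioma line has moved from glial identity.

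miR-376a* is the older name of the 5p arm of miR-376a. ADAR enzymes can turn an adenosine of this precursor into inosine, read as guanosine in pairing, and the duplexes labelled A and G stand for the unedited and edited forms. Sequences of the duplexes themselves were not used here. The RefSeq sequence of the 5p arm and of its neighbours from the same cluster on chromosome 14 (GRCh38.p14, plus strand) are shown because they are what the treatment is named after. The seed, bases 2 to 8, is in capitals, and the 5p arms of miR-376b and miR-376c share a seed that those of miR-376a do not have.
hsa-miR-376a-5p: gUAGAUUCuccuucuaugagua
hsa-miR-376a-2-5p: gGUAGAUUuuccuucuauggu
hsa-miR-376b-5p: cGUGGAUAuuccuucuauguuu
hsa-miR-376c-5p: gGUGGAUAuuccuucuauguu
The mature miR-376a-5p lies at chr14:101040788-101040809 in the gene MIR376A1.

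RefSeq start sites were on hand for 8 of the 10 genes, with 15 starts in all, in build GRCh38.p14. The 250 bases before a start are shown for the 3 genes whose signal moved most between groups and for CSPG4, whose arrays of one label lay far apart. MAP2 has 3 starts and GPM6A has 4, and the one farthest 5′ is shown, since the arrays do not tell the starts apart. Capitals mark matches, on either strand, to the TATA box TATAAA, to the CCAAT box (its name is its letters), to the GC box core GGGCGG, to ACGTG, the core of an E-box, and to the longer words CAGCACC or, lastly searched, GGACAGC.
MAP2, chr2:209579082-209579331, plus strand: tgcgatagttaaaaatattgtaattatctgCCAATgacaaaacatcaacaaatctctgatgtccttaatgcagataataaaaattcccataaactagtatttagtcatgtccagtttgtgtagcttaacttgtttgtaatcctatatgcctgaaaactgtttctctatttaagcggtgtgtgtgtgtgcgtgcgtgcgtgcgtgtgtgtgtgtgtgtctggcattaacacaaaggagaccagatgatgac
SYT1, chr12:78864524-78864773, plus strand: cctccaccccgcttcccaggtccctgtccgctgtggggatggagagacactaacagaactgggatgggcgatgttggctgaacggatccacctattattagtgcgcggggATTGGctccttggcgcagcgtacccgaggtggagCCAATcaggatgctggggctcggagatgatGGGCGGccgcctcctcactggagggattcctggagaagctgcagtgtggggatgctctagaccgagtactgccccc
GPM6A, chr4:176002394-176002643, minus strand: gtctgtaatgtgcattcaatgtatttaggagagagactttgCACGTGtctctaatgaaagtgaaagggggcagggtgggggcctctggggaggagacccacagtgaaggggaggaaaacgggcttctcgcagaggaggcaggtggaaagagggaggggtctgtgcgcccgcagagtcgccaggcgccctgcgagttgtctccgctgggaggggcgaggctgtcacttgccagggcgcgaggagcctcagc
CSPG4, chr15:75712849-75713098, minus strand: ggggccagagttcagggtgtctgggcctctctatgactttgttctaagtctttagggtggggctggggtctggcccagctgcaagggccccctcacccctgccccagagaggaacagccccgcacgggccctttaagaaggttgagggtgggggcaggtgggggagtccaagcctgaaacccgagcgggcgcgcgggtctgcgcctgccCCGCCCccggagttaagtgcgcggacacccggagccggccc
CCAAT was found once before MAP2 and in both orientations before SYT1, and it occurred in 32% of 35116 promoters of the same length. GGGCGG was found before SYT1 and before CSPG4 and occurred in 42.6% of promoters. The match before GPM6A was ACGTG, read on both strands of one palindrome, and 18.5% of promoters held it. Neither GGACAGC (4.76% of promoters) nor CAGCACC (6.16%) was in these 4 windows, and CAGCACC was found before NES. GC content was 37.6% before MAP2, 62% before SYT1, 61.2% before GPM6A and 68.4% before CSPG4.

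The first array of the miR-376a*A group and the first of the control group stood apart from their labels. Over 12587 tested genes, the first miR-376a*A array had a correlation of 0.925 to 0.934 to the rest of its group, and of 0.987 to 0.990 to the last 2 control arrays. For the first control array it was 0.934 to 0.935 to the rest of its group, and 0.982 to 0.990 to the last 2 miR-376a*A arrays. Groups are therefore given as the arrays are labelled, and results that rest on these 2 arrays are given again without both. The mean log2 signal of 18 hybridisation control probe sets was 7.82 to 7.92 on miR-376a*A arrays, 7.12 to 7.29 on miR-376a*G arrays and 7.51 to 7.70 on control arrays. For GAPDH, signal of the 3′ over the 5′ control probe set had a log2 ratio of -0.17 to -0.10 on miR-376a*A arrays, -0.19 to -0.14 on miR-376a*G arrays and -0.12 to -0.08 on control arrays. The part of either measure in the results was not tested.

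A gene was called dim where its brightest probe set lay below the median of its array, which was 18.0 to 21.1 on miR-376a*A arrays, 21.7 to 24.6 on miR-376a*G arrays and 18.5 to 22.0 on control arrays. By this measure 7 of the 10 genes were above the median on all 9 arrays, GFAP and S100B were dim on all 9, and GPM6A was above it on the 3 miR-376a*G arrays alone. The astrocyte markers GFAP and S100B were thus dim in U87 cells under all 3 treatments. ALDH1L1, also an astrocyte marker, was above the median on every array, as were VIM and TUBB3. Signal on these arrays is per probe set and is not compared between genes. Because whole cultures were measured, fewer cells carrying a marker and less RNA per cell cannot be told apart.

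**Figure D1:**
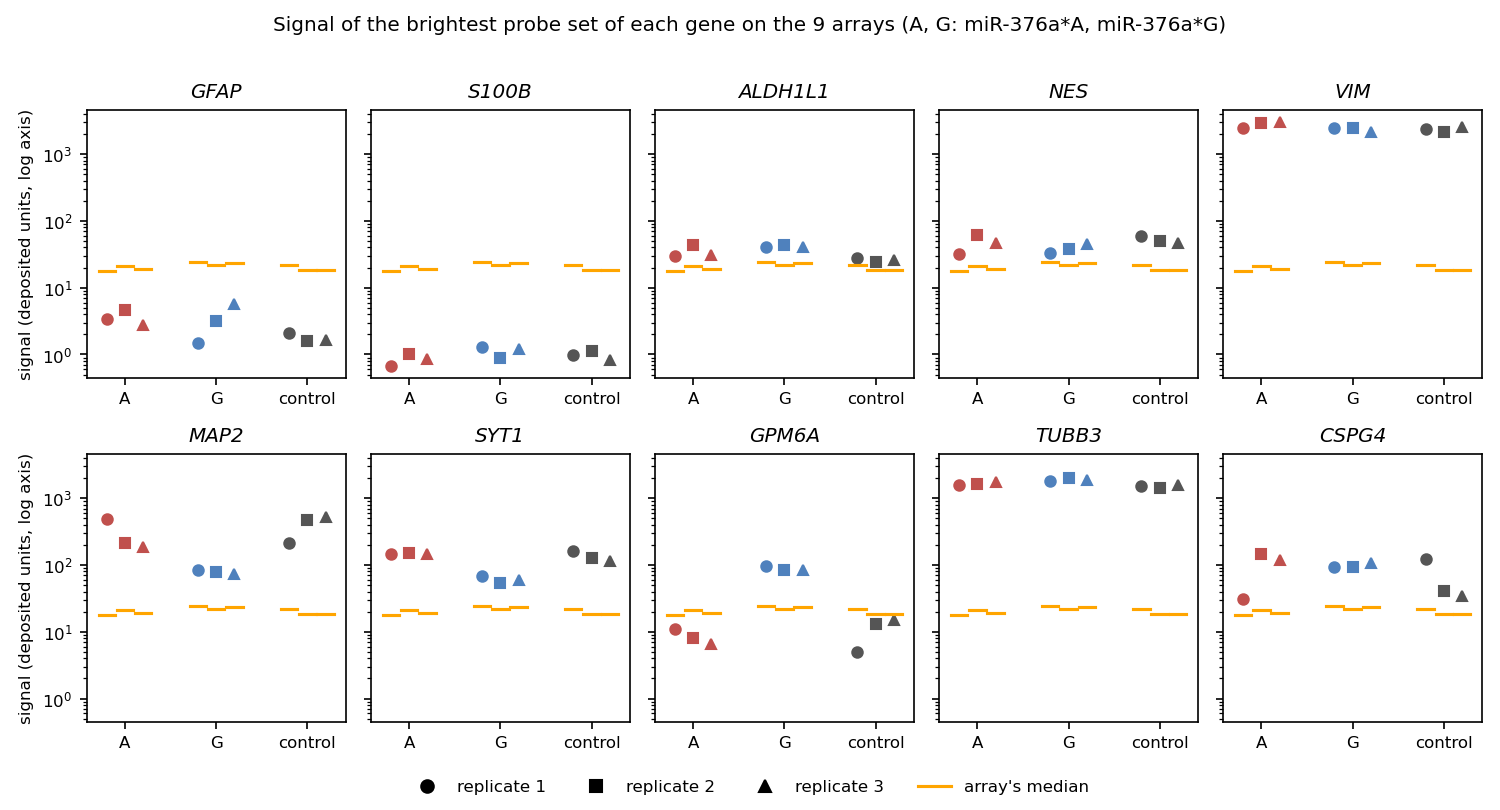
Signal of the brightest probe set of each of the 10 genes (log axis, deposited units) on the 9 arrays, with each array's median as an orange line. GFAP and S100B lie below the line on all 9 arrays, and GPM6A lies above it on the 3 miR-376a*G arrays, at 82.8 to 95.4.

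GFAP, the main intermediate filament of astrocytes, was near the floor. Its brightest probe set gave 3.41, 4.59 and 2.75 on miR-376a*A arrays, 1.48, 3.17 and 5.66 on miR-376a*G arrays and 2.11, 1.58 and 1.63 on control arrays. The miR-376a*G arrays spanned the control arrays, and all 3 GFAP probe sets were below the median everywhere. S100B gave 0.680, 1.01 and 0.846 on miR-376a*A arrays, 1.30, 0.879 and 1.21 on miR-376a*G arrays and 0.971, 1.13 and 0.817 on control arrays. The 3 groups overlapped, and neither gene passed the filter for testing.

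ALDH1L1, a cytosolic enzyme of folate metabolism used as a pan-astrocyte marker, was the astrocyte gene of the 3 that could be tested. Its brightest probe set gave 30.3, 43.6 and 30.8 on miR-376a*A arrays, 41.2, 42.9 and 41.4 on miR-376a*G arrays and 27.4, 24.0 and 25.9 on control arrays. Every array of either microRNA group lay above every control array, and the 2 microRNA groups overlapped. A second, dimmer probe set gave 22.8, 29.1 and 25.4 on miR-376a*A arrays, 30.7, 15.7 and 21.2 on miR-376a*G arrays and 26.5, 24.8 and 27.9 on control arrays, and there the groups overlapped.

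VIM, the intermediate filament of progenitors and mesenchymal cells, gave 2456, 2872 and 2975 on miR-376a*A arrays, 2495, 2445 and 2107 on miR-376a*G arrays and 2378, 2131 and 2500.4 on control arrays for its brightest probe set. The miR-376a*G and control arrays covered the same range. The other VIM probe set behaved differently, with 113, 115 and 138 on miR-376a*A arrays, 41.0, 44.3 and 44.6 on miR-376a*G arrays and 111, 97.5 and 107 on control arrays. Here the 3 miR-376a*G arrays lay below the other 6. That probe set is of the _x_at kind, in which some probes also match other sequences.

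NES, a large filament protein of neural stem cells, gave 32.4, 61.6 and 46.6 on miR-376a*A arrays, 33.0, 37.7 and 45.1 on miR-376a*G arrays and 59.7, 49.7 and 46.2 on control arrays. The miR-376a*A arrays spanned both other groups, and the miR-376a*G arrays lay just below the control arrays. The second NES probe set was dim on all 9 arrays, at 10.8 to 19.3.

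MAP2 stabilises microtubules in dendrites. Its brightest probe set gave 486, 212 and 185 on miR-376a*A arrays, 83.1, 79.4 and 72.9 on miR-376a*G arrays and 210.05, 473 and 517 on control arrays. All miR-376a*G arrays were lowest, and the first replicate of both other groups sat at the level of the opposite label. A dimmer probe set showed the same crossing, with 91.4, 36.6 and 37.5 on miR-376a*A arrays, 34.9, 30.2 and 35.4 on miR-376a*G arrays and 34.6, 71.4 and 80.6 on control arrays.

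SYT1 is the calcium sensor that triggers vesicle fusion at synapses. It gave 144, 149.7 and 145 on miR-376a*A arrays, 69.5, 54.6 and 59.5 on miR-376a*G arrays and 162, 127 and 116 on control arrays. The miR-376a*G arrays lay below all others, and the miR-376a*A arrays fell within the control range. Of the 2 arrays that stood apart, the first control array, at 162, was above all miR-376a*A arrays. The first miR-376a*A array, at 144, was near the rest of its group. For its second probe set the miR-376a*G arrays were again lowest, with 64.6, 52.0 and 75.4 on miR-376a*A arrays, 28.4, 25.6 and 31.8 on miR-376a*G arrays and 66.2, 57.6 and 57.2 on control arrays.

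GPM6A encodes a proteolipid-type membrane glycoprotein of neurons that takes part in neurite outgrowth. It gave 11.2, 8.11 and 6.61 on miR-376a*A arrays, 95.4, 82.9 and 82.8 on miR-376a*G arrays and 4.97, 13.2 and 15.2 on control arrays. It was dim in the miR-376a*A and control groups and above the median on each miR-376a*G array. A second probe set gave 11.4, 8.98 and 6.27 on miR-376a*A arrays, 93.5, 77.8 and 86.6 on miR-376a*G arrays and 8.78, 10.5 and 9.32 on control arrays, again with no overlap, while the remaining one was dim on all 9 arrays.

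TUBB3, the β-tubulin typical of neurons, gave 1556, 1605 and 1728 on miR-376a*A arrays, 1791, 2002 and 1881 on miR-376a*G arrays and 1538, 1434 and 1581 on control arrays. The miR-376a*G arrays lay above the other 6, by a small margin. Both TUBB3 probe sets are of the _x_at kind, and β-tubulin genes are close in sequence, so the part of other tubulin transcripts in this signal was not tested.

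CSPG4, the NG2 proteoglycan of oligodendrocyte precursors and pericytes, gave 30.9, 145 and 118 on miR-376a*A arrays, 91.8, 92.2 and 107 on miR-376a*G arrays and 124, 40.4 and 34.9 on control arrays. As for MAP2, but with high and low exchanged, the first replicate of the miR-376a*A and control groups sat at the level of the opposite label. A dimmer probe set crossed too, at 15.5, 87.4 and 68.8 on miR-376a*A arrays, 34.4, 37.8 and 35.9 on miR-376a*G arrays and 65.7, 18.1 and 13.9 on control arrays. Group means of the brighter probe set therefore carried large errors, at 98.0 ± 59.6 for miR-376a*A, 97.1 ± 8.87 for miR-376a*G and 66.3 ± 49.7 for control (SD, n = 3 each).

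Against the control duplex, the edited form miR-376a*G gave higher GPM6A, ALDH1L1 and TUBB3 and lower MAP2 and SYT1. GPM6A rose to 87.1 ± 7.26 on miR-376a*G arrays, against 11.1 ± 5.41 on control arrays (SD, n = 3 each), a log2 difference of 2.98 (SE 0.37). It passed the filter on low values only through the miR-376a*G arrays, so this difference is a description, and without that filter its adjusted p in limma was 0.000603. MAP2 fell to 78.5 ± 5.15 on miR-376a*G arrays, against 400.1 ± 166 on control arrays, a log2 difference of -2.23 (SE 0.41, adjusted p = 0.00327). SYT1 fell to 61.2 ± 7.55 on miR-376a*G arrays, against 135 ± 23.7 on control arrays, a log2 difference of -1.12 (SE 0.16, adjusted p = 0.000745). The remaining neuronal gene of the list, TUBB3, was called higher, though not with arrays centred on their medians. Adjusted p-values come from limma fitted to log2(signal + 1) of all 12587 tested genes, are two-sided, and call a gene under 0.05.

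Smaller changes in ALDH1L1 and TUBB3 passed as well. ALDH1L1 averaged 41.8 ± 0.97 on miR-376a*G arrays and 25.8 ± 1.74 on control arrays, a log2 difference of 0.68 (SE 0.18, adjusted p = 0.02), but its second probe set differed by -0.27 (adjusted p = 0.445 among single probe sets). TUBB3 averaged 1891 ± 106 on miR-376a*G arrays and 1518 ± 75.5 on control arrays, a log2 difference of 0.32 (SE 0.07, adjusted p = 0.0108), with 0.33 for its second probe set. NES differed by -0.42 (SE 0.24, adjusted p = 0.217) and CSPG4 by 0.78 (SE 0.61, adjusted p = 0.352). The brightest VIM probe set differed by 0.0069 (SE 0.10, adjusted p = 0.965), although the _x_at probe set was lower, with a log2 difference of -1.26 (SE 0.13, adjusted p = 0.000183 among single probe sets). The dimmer MAP2 probe set differed by -0.79 (adjusted p = 0.162). Of 15 single probe sets of the 10 genes that were tested, 9 were called, where 32.3% of all 24310 were. The GPM6A probe sets among them passed the filter only through the miR-376a*G arrays, so the count is a description.

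Of the 8 genes tested, 5 were called between miR-376a*G and control, 3 higher and 2 lower, where 33.4% of all tested genes were called, 18% higher and 15.4% lower. As GPM6A had to differ, and the genes were not chosen blind to these results, the count is a description. The median log2 difference was 0.16 for the 8 genes and 0.12 for all tested genes. Groups did not overlap for 6 of the 8, the 5 called and NES, against 53.4% of all tested genes.

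**Figure D2:**
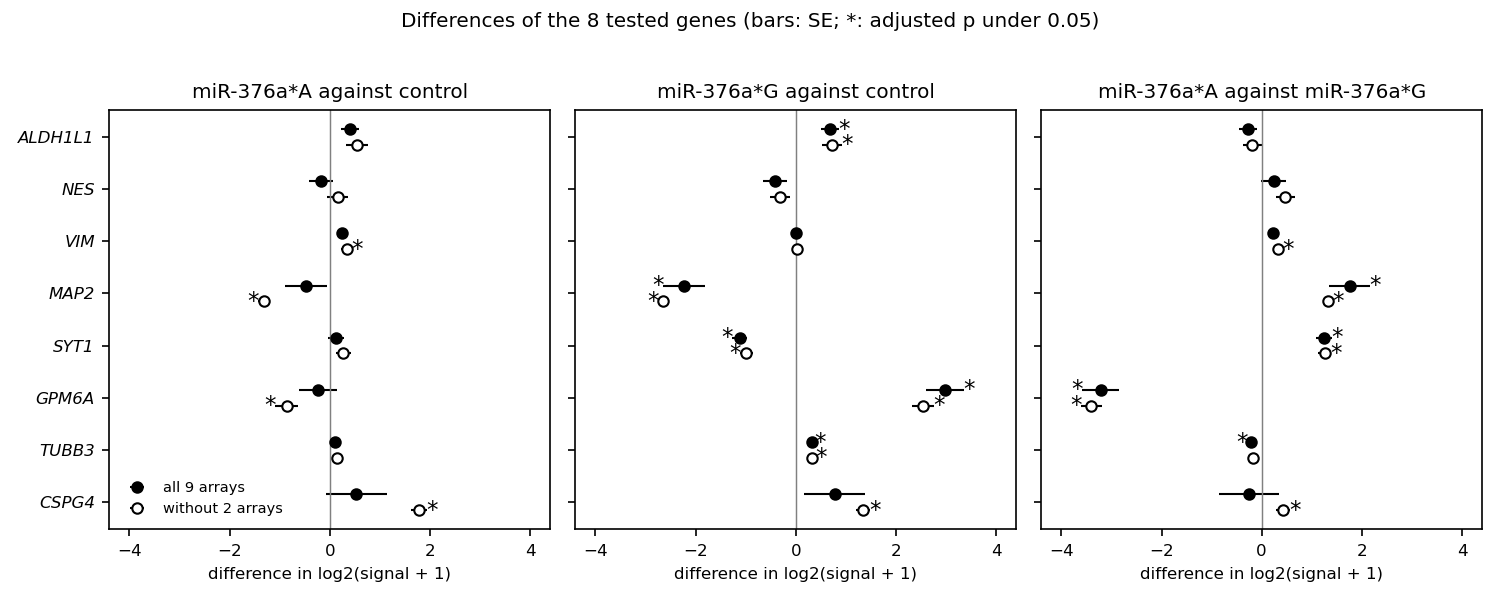
Differences in log2(signal + 1) with SE for the 8 tested genes in each comparison, with all 9 arrays (filled) and without the 2 arrays that stood apart (open). Stars mark adjusted p under 0.05. CSPG4 and MAP2 have the longest bars with all 9 arrays, and MAP2 differs by -1.32 between miR-376a*A and control without the 2 arrays.

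**Figure D3:**
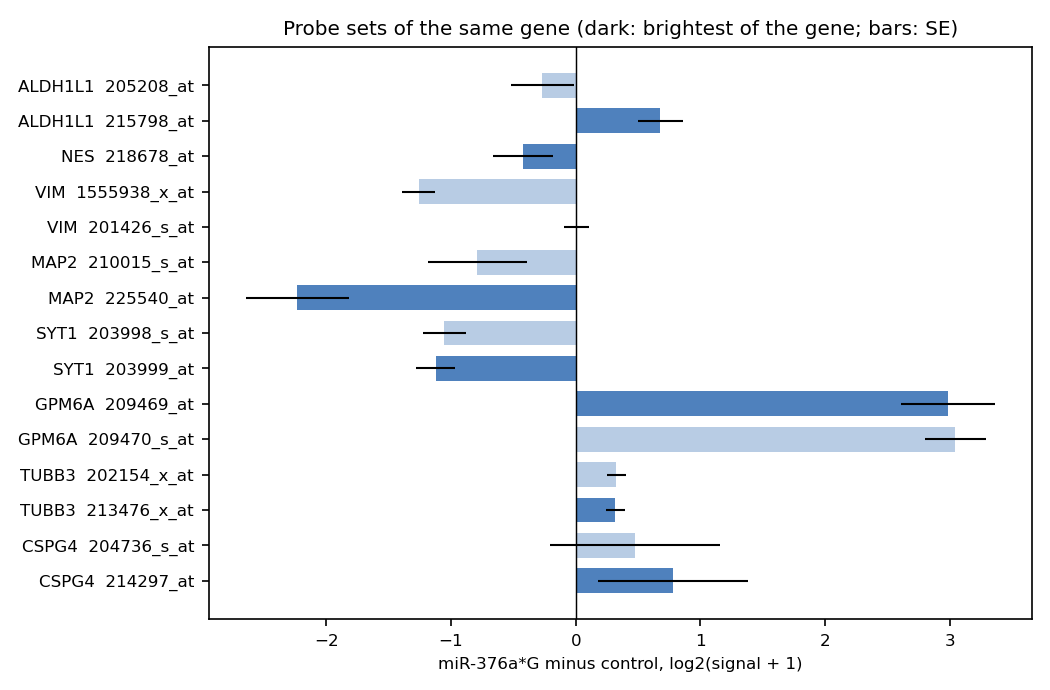
Difference in log2(signal + 1) between miR-376a*G and control for each of the 15 probe sets of these genes that passed the filter, with SE. Probe sets of GPM6A (2.98 and 3.05), SYT1 and TUBB3 give like values, while those of VIM (-1.26 and 0.0069), ALDH1L1 (-0.27 and 0.68) and MAP2 (-0.79 and -2.23) do not.

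The sizes depend on how arrays are scaled, since the median of all tested genes lay at 0.12 as deposited, at -0.12 with arrays centred on their medians and at 0.51 when scaled to the hybridisation controls. These scalings shift all genes of an array by the same amount, so differences relative to that median are the same under all 3 by construction. They were 2.87 for GPM6A, 0.56 for ALDH1L1, 0.20 for TUBB3, -1.24 for SYT1 and -2.35 for MAP2. ALDH1L1 (0.45) and TUBB3 (0.086) were not called with arrays centred on their medians, nor was ALDH1L1 as the mean over its probe sets (0.21). ALDH1L1 also lost its call when any single miR-376a*G array, control replicate 2 or control replicate 3 was left out (differences of 0.63 to 0.69). With the first control array left out here (both arrays that stood apart dropped from the fit), MAP2 differed by -2.64, GPM6A by 2.54, SYT1 by -0.99, ALDH1L1 by 0.72 and TUBB3 by 0.33, all 5 again called. CSPG4 was then called too (1.35, SE 0.14), where 56.1% of all tested genes were.

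Against the control duplex, the unedited form miR-376a*A gave no call for the 8 genes as the arrays are labelled. MAP2 averaged 294 ± 167 on miR-376a*A arrays and 400.1 ± 166 on control arrays (SD, n = 3 each), a log2 difference of -0.48 (SE 0.41, adjusted p = 0.886). CSPG4 differed by 0.53 (SE 0.61), ALDH1L1 by 0.41 (SE 0.18), VIM by 0.24 (SE 0.10), SYT1 by 0.13 (SE 0.16), TUBB3 by 0.10 (SE 0.07), NES by -0.18 (SE 0.24) and GPM6A, dim in both groups, by -0.23 (SE 0.37). limma called 0 of the 8 and 0% of all tested genes. VIM alone of the 8 had an unadjusted p under 0.05 (463 of 12587 genes did). ALDH1L1 was the 1 gene of the 8 whose groups did not overlap, against 6.15% of all tested genes.

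With the first array of both groups left out, 4 of the 8 genes were called between miR-376a*A and control, where 41.9% of all tested genes were. CSPG4 was then higher by 1.77 (SE 0.16), at 145 and 118 on the miR-376a*A arrays left, against 40.4 and 34.9 on the control arrays left, and VIM was higher by 0.34 (SE 0.11). MAP2 was lower by 1.32 (log2 difference -1.32, SE 0.12), at 212 and 185 on the miR-376a*A arrays, against 473 and 517 on the control arrays, and GPM6A was lower (-0.86, SE 0.24) with both groups dim. The arrays left out were picked from these data, so those calls are not independent evidence, and none of the 4 was called in any of the 17 other alternatives.

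Set against each other, miR-376a*A and miR-376a*G differed in GPM6A, SYT1, MAP2 and TUBB3, and this comparison and that of miR-376a*G with control share the miR-376a*G arrays. GPM6A averaged 8.64 ± 2.33 on miR-376a*A arrays and 87.1 ± 7.26 on miR-376a*G arrays, a log2 difference of -3.22 (SE 0.37), again a description, since the miR-376a*A arrays were all dim for it (adjusted p = 0.000346 in limma without the filter). SYT1 averaged 146 ± 3.25 on miR-376a*A arrays and 61.2 ± 7.55 on miR-376a*G arrays, a difference of 1.25 (SE 0.16, adjusted p = 0.000376). MAP2 averaged 294 ± 167 on miR-376a*A arrays and 78.5 ± 5.15 on miR-376a*G arrays, a difference of 1.76 (SE 0.41, adjusted p = 0.00948), and all 3 miR-376a*A arrays lay above the miR-376a*G arrays.

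TUBB3 was lower on miR-376a*A arrays by a small amount, at 1629 ± 88.4, against 1891 ± 106 on miR-376a*G arrays, with a log2 difference of -0.21 (SE 0.07, adjusted p = 0.0490). It turned to 0.034 with arrays centred on their medians and was called in 4 of the 18 alternatives. ALDH1L1 (-0.27), CSPG4 (-0.25), NES (0.24) and VIM (0.24) were not called. The count was 4 of 8, 2 higher and 2 lower on miR-376a*A arrays, where 38.2% of all tested genes were called, 16.4% higher and 21.8% lower. As GPM6A had to differ here too, this count is a description. Without both arrays that stood apart, MAP2 differed by 1.33, SYT1 by 1.26 and GPM6A by -3.40, and VIM (0.32) and CSPG4 (0.43) were called as well, while TUBB3 (-0.18) was not, where 59.6% of all tested genes were called. For VIM the _x_at probe set was higher on miR-376a*A arrays by 1.47 (SE 0.13, adjusted p = 8.24e-05 among single probe sets). VIM was also called at 0.48 with arrays centred on their medians, at 0.85 as the mean over probe sets and at 0.32 without miR-376a*A replicate 1 alone, and at -0.43 when scaled to the hybridisation controls. The mean over both MAP2 probe sets differed by 1.16 and was not called.

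Other markers of the same lineages were also called between miR-376a*G and control. Counts are to be read against the 33.4% of all tested genes called, 18% higher and 15.4% lower. Of 17 further astrocyte markers, 11 were tested and 5 fell while 1 rose, with the aldolase gene ALDOC at -2.41 (SE 0.28, adjusted p = 0.000289) and CLU, a secreted chaperone, at -0.67 (SE 0.09, adjusted p = 0.000645). ALDOC signal was 94.8, 111 and 99.3 on miR-376a*G arrays, against 701, 479 and 486 on control arrays, with no overlap. AGT, the gene that rose, would not have passed the filter on low values without the miR-376a*G arrays. Its difference (0.81, SE 0.23) is a description. Of the 16 further astrocyte markers with a probe set, 4 were dim on all 9 arrays, like GFAP. The mature astrocyte channel gene AQP4 was among them, at 1.73 to 11.9. Above the median on every array were ALDOC, CLU, SLC1A3, GJA1, GLUL, CD44, SOX9, APOE and FABP7.

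Of 28 further neuronal markers 15 were tested, of which 2 rose and 2 fell, against 33.4% of all tested genes called. ENO2, the neuronal enolase, was lower by 1.15 (log2 difference -1.15, SE 0.09, adjusted p = 3.5e-05), and GAP43, a growth cone protein, was at -2.91 (SE 0.29, adjusted p = 0.000120). GAP43 signal was 29.7, 36.5 and 35.3 on miR-376a*G arrays, against 339, 261 and 198 on control arrays. Those that rose were ELAVL2, an RNA-binding protein gene (1.80, SE 0.51, adjusted p = 0.0233), and THY1, a surface glycoprotein gene (1.61, SE 0.51). THY1 would not have passed the filter on low values without the miR-376a*G arrays, at 27.1 to 38.3, so its difference is a description. It was dim on all control arrays, at 3.18 to 17.4. Of the 27 further neuronal markers with a probe set, 10 were dim on all 9 arrays, the neuronal nuclear marker RBFOX3 and the neurofilament gene NEFL among them. Above the median on every array were ENO2, GAP43, UCHL1, SNAP25, NCAM1, DLG4 and GAD1.

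Of 16 further progenitor markers 7 were tested and 1 rose, where 18% of all tested genes rose. It was the transcription factor gene PAX6 (0.77, SE 0.17, adjusted p = 0.00717). Its signal was 120.2, 147 and 122 on miR-376a*G arrays, against 88.6, 76.1 and 63.1 on control arrays. Of 16 further oligodendrocyte and pericyte markers 8 were tested, of which 2 rose and 1 fell (33.4% of all tested genes were called), with the pericyte genes RGS5 at 1.35 (SE 0.21, adjusted p = 0.00126) and PDGFRB at -2.65 (SE 0.73, adjusted p = 0.0209). SOX10, the other gene that rose, would not have passed the filter on low values without the miR-376a*G arrays. Its difference (0.77, SE 0.24) is a description. PDGFRB was among the genes with crossed arrays, at 51.2, 205 and 193 on miR-376a*A arrays, 26.6, 4.54 and 16 on miR-376a*G arrays and 173, 57.9 and 61.5 on control arrays.

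Median differences of the tested genes were -0.16 for the astrocyte list, -0.03 for the neuronal list, -0.24 for the progenitor list and -0.31 for the oligodendrocyte and pericyte list, against 0.12 for all tested genes. Without both arrays that stood apart they were -0.09 for astrocyte, 0.30 for neuronal, 0.05 for progenitor and -0.03 for oligodendrocyte and pericyte genes, against 0.12 for all genes, so the neuronal and progenitor medians changed sign. The astrocyte list then had 4 genes called higher and 4 lower, the neuronal list 4 higher and 3 lower, the progenitor list 1 higher and 1 lower, and the oligodendrocyte and pericyte list 2 higher and 1 lower, where 56.1% of all tested genes were called. The 2 higher in the oligodendrocyte and pericyte list again included SOX10, whose difference is a description. Between miR-376a*A and control limma called 0 of the genes of these lists as labelled, as it did of all genes. Without both arrays that stood apart, 6 astrocyte genes were called higher and 1 lower there, with a median of 0.44, and 7 neuronal genes higher and 1 lower, with a median of 0.41, where all tested genes had a median of 0.0050 and 41.9% were called.

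**Figure D4:**
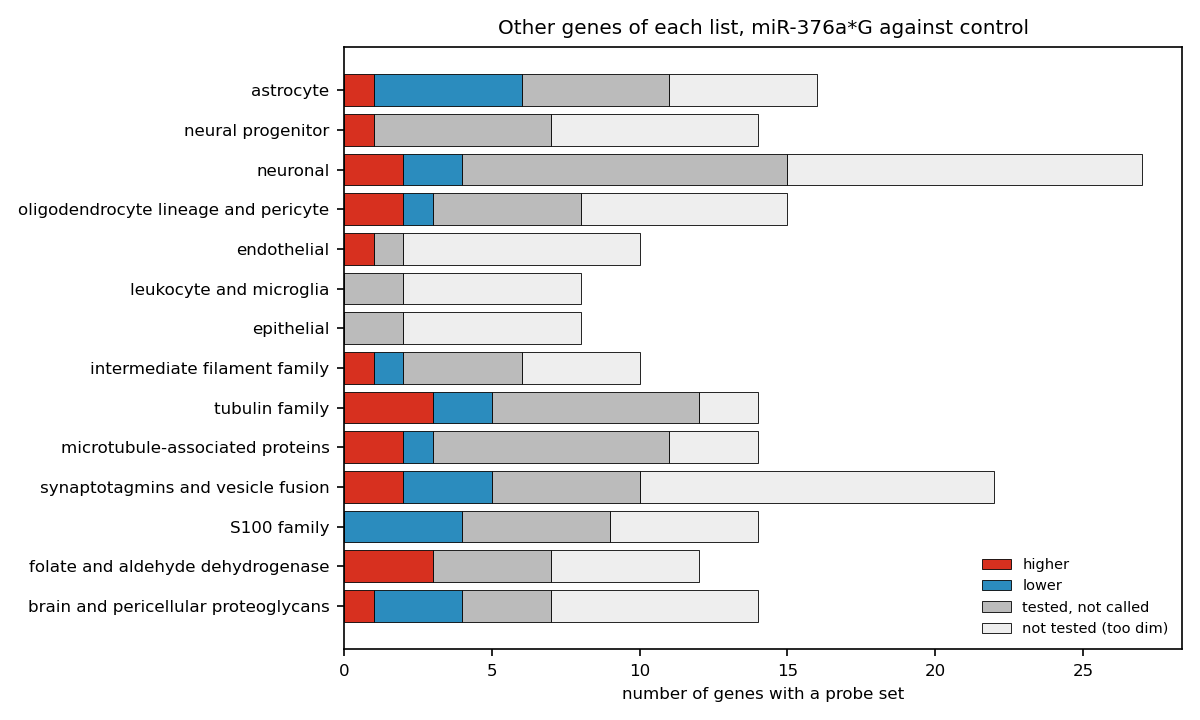
Genes of each list other than the 10 described, by result between miR-376a*G and control (numbers of genes with a probe set). Marker lists of other cell types have 2 tested genes each, and the astrocyte list has 5 lower and 1 higher of 11 tested. The 1 higher is AGT, whose difference is a description. The family lists share genes with the marker lists.

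Markers of other cell types were dim in part. Below the median on all 9 arrays were 6 of 10 endothelial markers, VWF among them, 4 of 8 leukocyte and microglia markers, PTPRC among them, and 5 of 8 epithelial markers, CDH1 among them. The like counts were 4 of 16 further astrocyte, 6 of 14 further progenitor and 10 of 27 further neuronal markers. PECAM1, KDR, CSF1R and KRT8 were above the median on all 9 arrays, and MUC1 was above it on 8. Summed signal of the endothelial list was 104 to 186 on miR-376a*A arrays, 183 to 263 on miR-376a*G arrays and 96 to 235 on control arrays, which overlapped. That of the leukocyte list was 75.0 to 157 on miR-376a*A arrays, 109 to 145 on miR-376a*G arrays and 70.6 to 142 on control arrays. The epithelial list summed to 75.3 to 120.1 on miR-376a*A arrays, 108 to 125 on miR-376a*G arrays and 79.2 to 115 on control arrays. KDR, a receptor for vascular endothelial growth factor, was the one gene called of the 6 tested in these lists, where 33.4% of all tested genes were, at 103, 56.9 and 54.9 on miR-376a*G arrays, against 39.6, 27.0 and 21.9 on control arrays (log2 difference 1.23, adjusted p = 0.0174). Without both arrays that stood apart, KDR differed by 1.46, PECAM1 by 1.12 and AIF1 by 0.94, and these 3 were called, where 56.1% of all tested genes were. AIF1 would not have passed the filter on low values without the miR-376a*G arrays, so its difference is a description. The part of such cells in the results was not tested.

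The genes whose pattern over the 9 arrays was most like each of the 8 were named by Pearson's r on log2(signal + 1), as a description of arrays that share groups and scaling. MAP2 was most like RNF146 (r = 0.998), a ubiquitin ligase gene, and RAB31 (r = 0.997), a small GTPase gene. RAB31 signal was 1253, 647 and 612 on miR-376a*A arrays, 288, 301 and 277 on miR-376a*G arrays and 586, 1260.3 and 1401 on control arrays, crossing in the same 2 arrays as MAP2. GPM6A was most like the centromere gene CENPL (r = 0.997) and SMKR1 (r = 0.996), and SYT1 was most like KALRN (r = 0.995), which encodes a neuronal guanine nucleotide exchange factor, and GOLIM4 (r = 0.994). CENPL gave 64.0, 58.3 and 53.2 on miR-376a*A arrays, 204, 223 and 200.2 on miR-376a*G arrays and 47.4, 73.9 and 77.5 on control arrays. CSPG4 was most like ABTB2 (r = 0.994) and MARCHF4 (r = 0.993). For ALDH1L1 (SYNPO2L, 0.985, and ZNF320, 0.973), TUBB3 (GNPDA2, 0.970, and ZNF584, 0.966), NES (FAAP100, 0.966, and PLXNA3, 0.959) and VIM (EEF1A1, 0.965, and COX2, 0.957) the nearest genes were less close.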

How the data were processed

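The authors deposited 1 linear intensity value per probe set and array. Per the submitters' processing notes, GCOS 1.4.0.036 was the software. How probes were summarised is not given in the sources used here. Intensities had been scaled before deposit, to a 2% trimmed mean of 100.0 on all 9 arrays, so differences are relative to the rest of the array. Per the labels' protocols, RNA was labelled with biotin-ULS. No probe detection calls were used.

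Gene names came from the platform's probe table, leaving out control probe sets and those of several genes, and 19735 of 19775 genes were matched by Entrez number to RefSeq (GRCh38.p14). The brightest probe set (mean log2(signal + 1) over the 9 arrays) stood for its gene, and 12587 genes whose signal passed the array median on 3 or more arrays were tested. limma 3.58.1 in R 4.3.3 was fitted to all 9 arrays with 1 coefficient per group, 6 residual degrees of freedom and a trended eBayes, with Benjamini-Hochberg adjustment per comparison. Fold changes are on the log2(signal + 1) scale, which understates dim genes. The steps were tested on simulated data. The number of arrays limits precision.

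The genes, lists and alternatives were chosen with earlier results of these data known. All 10 genes were named, with the 2 most correlated genes of each and, from each list, at most the 2 called genes with the smallest p. AQP4, AGT, ELAVL2, THY1, SOX10, RBFOX3, NEFL, VWF, PTPRC, CDH1, PECAM1 and AIF1 were named after their values were seen. So were SLC1A3, GJA1, GLUL, CD44, SOX9, APOE, FABP7, UCHL1, SNAP25, NCAM1, DLG4, GAD1, CSF1R, KRT8 and MUC1. Alternatives were a pseudocount of 16, no filter, 3 other scalings, 2 other uses of probe sets, a replicate block and leaving out arrays.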

Additional observations from a re-analysis of the deposited data

How the results depend on the processing

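Of 24 differences of the tested genes, 10 kept their direction where called and their side of the threshold under all 18 alternatives. MAP2 and SYT1 between miR-376a*G and control were called in all 19 settings (-2.64 to -1.51 and -1.35 to -0.72), and so was SYT1 between the microRNAs (A minus G). In the setting of single probe sets, the brightest probe set stood for the gene. The dimmer MAP2 probe set (-0.79, adjusted p = 0.162 in limma) was not called there. GPM6A ranged from 1.95 to 3.38 between miR-376a*G and control, in a gene that passed the filter on low values only through the miR-376a*G arrays. Leaving out 1 array at a time gave 4 to 5 called of the 8 genes for miR-376a*G against control, 3 to 4 between the microRNAs and 0 for miR-376a*A against control, and 2994 to 4952, 3497 to 5602 and 0 of all tested genes, against 4205, 4804 and 0. Without both arrays that stood apart 4 of the 8 were called for miR-376a*A against control, and all tested genes called were 5269 for that comparison, 7067 for miR-376a*G against control and 7508 between the microRNAs. Scaling to the hybridisation controls gave 6538 and 8882 for the last 2 comparisons, and single probe sets gave 7848 and 8785 of 24310. Calls higher were 53.9% for miR-376a*G against control as deposited, 29.1% with arrays centred on their medians and 85.5% with hybridisation controls, and 43%, 70.1% and 7.62% between the microRNAs.

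Of these differences, 4 changed sign with a call on one side. TUBB3 between the microRNAs was 0.034 with arrays centred on their medians. VIM was -0.43 there when scaled to the hybridisation controls, and CSPG4 was 0.43 without both arrays. VIM between miR-376a*G and control was -0.63 as the mean over probe sets, which brings in its _x_at probe set. Relative to the median of all tested genes, TUBB3 (-0.073) and VIM (0.38) between the microRNAs keep their values under these scalings by construction. That median was 0.11 with arrays centred on their medians and -0.81 with hybridisation controls. For CSPG4, the miR-376a*A array left out was at 30.9, and those kept were at 145 and 118. What set the median of all genes was not tested. Deviations of same-numbered arrays from their group means had r = -0.88 to 0.05. These deviations include the arrays that stood apart from their labels, and r was -0.88 to -0.56 between miR-376a*A and control arrays. The check therefore cannot show whether the replicate number is a pairing. With a replicate block the counts were 4, 3 and 0 of the 8 genes and 2936, 3453 and 0 of all tested genes, and ALDH1L1 between miR-376a*G and control and TUBB3 between the microRNAs were not called.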

Other observations

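Other genes of the families to which the 10 genes belong were also called between miR-376a*G and control, where 18% of all tested genes were called higher and 15.4% lower. Although S100B itself was dim, 9 of 14 other S100 genes were tested and 4 fell. S100A3 signal was 97.8, 98.2 and 90.1 on miR-376a*G arrays, against 251, 289 and 285 on control arrays (log2 difference -1.52, SE 0.11, adjusted p = 2.8e-05). S100A11, an abundant annexin-binding member, differed by -0.38 (SE 0.10, adjusted p = 0.0151). Among 7 tested genes of folate metabolism and aldehyde dehydrogenases, the family of ALDH1L1, 3 rose. The mitochondrial serine hydroxymethyltransferase gene SHMT2 gave 989, 1141 and 1041 on miR-376a*G arrays, against 636, 628 and 589 on control arrays (0.77, SE 0.09, adjusted p = 0.000293), and the retinal dehydrogenase gene ALDH1A3 differed by 0.90 (SE 0.16, adjusted p = 0.00241). In the intermediate filament family of GFAP, VIM and NES, 6 further genes were tested and the lamin genes LMNB1 (1.71, SE 0.12) and LMNA (-0.64, SE 0.09) were called in opposite directions.

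Among 12 tested tubulin genes other than TUBB3, 3 rose and 2 fell, with TUBG1, the γ-tubulin of centrosomes, at 0.79 (SE 0.12) and TUBA4A at -0.88 (SE 0.08). With 11 tested microtubule-associated genes besides MAP2, 2 rose and 1 fell, with STMN4 at 0.93 (SE 0.18) and MAP1A at -0.54 (SE 0.14). STMN4 passed the filter only through the 3 miR-376a*G arrays, at 33.2 to 37.1, against 16.5 to 18.7 on control arrays, so its difference is a description. Of 10 tested genes of vesicle fusion besides SYT1, 2 rose and 3 fell, with the vesicle protein gene VAMP1 at -1.19 (SE 0.14) and the fusion gene SNAP23 at -1.0 (SE 0.18). Of 7 tested proteoglycan genes besides CSPG4, 1 rose and 3 fell, with the glypican genes GPC6 at -2.65 (SE 0.25) and GPC1 at -0.64 (SE 0.13). GPC6 signal was 74.9, 76.6 and 68.4 on miR-376a*G arrays, against 323, 580.3 and 538 on control arrays, and 513, 334 and 308 on miR-376a*A arrays, so it crossed between the same 2 arrays as MAP2. Of 3 proteolipid genes besides GPM6A, 1 had a probe set used here and was dim on all 9 arrays, at 5.09 to 12.4. These lists share some genes with the marker lists.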
